A study of Mus musculus with 9 samples.

Results

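Testis expression after CW069 was set against testis expression after AZ82, 2 compounds given by injection in the same series. The members are 6 of the 9 libraries: 3 from testes of mice injected with CW069 at 50 µM and 3 from testes of mice injected with AZ82 at 1 µM. All animals were 8-week-old ICR mice, an outbred stock, with no engineered allele named in the labels. The other 3 libraries came from PBS-injected mice of the same stock and age (Control); they shared the estimate of the spread between libraries and their levels are given beside the members. Compound and dose differ together between the groups, so the effect of the compound and that of the dose cannot be told apart. The labels do not give the route or the time after injection, and they do not say whether the 3 samples of a group came from 3 animals, so every p-value measures only the spread between these samples.

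AZ82 and CW069 are code names of inhibitors of KIFC1, a minus-end-directed motor of the kinesin-14 family that slides and bundles spindle microtubules and gathers extra centrosomes into poles. In the testis KIFC1 is also known from the manchette and the acrosome of spermatids, the structures that shape the sperm head. Whole testis RNA mixes germ cells at every stage (spermatogonia, meiotic spermatocytes, round and elongating spermatids) with Sertoli cells, which nurse them, testosterone-producing Leydig cells, peritubular myoid cells, blood vessels and macrophages. In such bulk RNA fewer cells of a type and less RNA per cell cannot be told apart.

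The AZ82 libraries held between 14080156 and 14386351 counts and the CW069 libraries between 14318774 and 18102593, and 15834 of 19991 genes had enough counts to be tested. The SD of the log2 difference over genes was 0.326 to 0.349 between an AZ82 and a CW069 library, 0.336 to 0.341 between 2 AZ82 libraries and 0.234 to 0.351 between 2 CW069 libraries. By this SD, libraries of different groups stood about as far apart as libraries of the same group. The squared count difference per gene, in units of the counting variance, gave 5.94 to 12.2 between an AZ82 and a CW069 library. It gave 6 to 7.35 between 2 AZ82 libraries and 3.87 to 9.02 between 2 CW069 libraries. By that measure some pairs of different groups stood farther apart than any pair within AZ82 or within CW069. The lowest values of both measures belonged to CW069 1 and CW069 2. This pair still differed beyond sampling noise (3.87 times the counting variance per gene), which does not show that the 2 libraries came from separate animals. They were kept as separate samples. Control 3 held few late spermatid transcripts, and it enters the spread of each gene in the fit; results that this touches are given with and without it.

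No gene differed between the groups after adjustment for the number of genes. Levels are library-scaled counts (CPM, TMM scaling), and differences are log2 fold changes, CW069 minus AZ82, from edgeR's quasi-likelihood test; a gene is called at a Benjamini-Hochberg adjusted p under 0.05. The test called 0 genes higher (0% of those tested) and 0 lower (0%), and the smallest adjusted p was 0.255, shared by Hsd3b6, Gm11545, 1700123K08Rik and Pygb. At an unadjusted p under 0.05 there were 409 genes higher after CW069 (2.58%) and 378 lower (2.39%), 787 in all, where 792 would be found if no gene differed. Scaling by library size alone left a similar total of 767 but moved the share on the higher side from 52.0% to 62.5%. In the edgeR fit of the 6 AZ82 and CW069 libraries alone the total was 1177 of 15587 genes. Without Control 3 it was 1168 of 15991. Both lie above the 0.05 share expected if no gene differed, so the total depended on which Control libraries entered the fit. All 3 CW069 libraries lay above all 3 AZ82 libraries in 874 genes (5.52%) and below them in 919 (5.80%); with library size alone as the scaling these counts were 1237 and 689. DESeq2 called 9 genes higher (0.0568%) and 4 lower (0.0253%), an edgeR fit of the 6 AZ82 and CW069 libraries alone 5 higher (0.0321%) and 3 lower (0.0192%), and limma-voom 0 (764 at an unadjusted p under 0.05). The predicted gene Gm11545 was higher after CW069 (log2 fold change 1.64, SE 0.25) and the unnamed gene 1700123K08Rik lower (-0.90, SE 0.14). Neither had overlap between the groups. DESeq2 called both (adjusted p = 0.000985 and 0.000186), as did the edgeR fit of the 6 libraries alone (adjusted p = 0.0428 for each). With 3 libraries against 3 an exact two-sided permutation test of 1 gene cannot go below 0.1.

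The data also bound how far the groups could differ. The median 95% interval of a gene reached 0.28 to either side on the log2 scale, a factor of 1.21. The interval lay inside a change of 1.5-fold in either direction for 11261 genes (71.1%), and inside 2-fold for 89.5%. Among the 9894 genes with a mean level of at least 10 CPM, 92.8% had an interval inside 1.5-fold. A change of 2-fold or more together with an unadjusted p under 0.05 was found in 34 genes on the higher side and 37 on the lower.

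**Figure D1:**
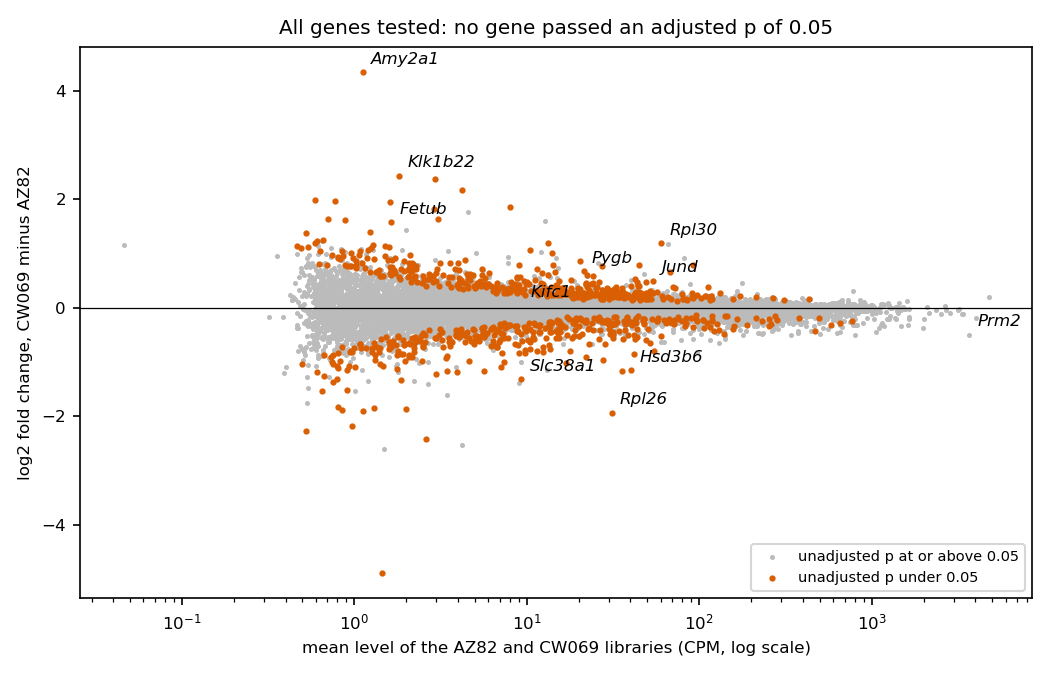
Log2 fold change (CW069 minus AZ82) of each of the 15834 genes tested against its mean level in CPM over the AZ82 and CW069 libraries (log axis); orange points have an unadjusted p under 0.05 (787 genes). The cloud is centred on 0 and widens at low levels, and Kifc1 lies close to the line.

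The transcript of the target did not separate the groups. Kifc1 stood at 9.39, 9.57 and 9.02 CPM after AZ82 and at 8.97, 9.24 and 10.51 CPM after CW069, so the groups overlapped. The log2 fold change was 0.04 (95% interval -0.22 to 0.30; edgeR adjusted p = 0.999). Without CW069 3 it was -0.03. Kifc5b, a near copy of Kifc1, gave -0.04 (-0.29 to 0.21) and overlapped as well. In the GENCODE transcripts 39.7% of the 50-base stretches of Kifc1 also occur in another gene, nearly all of them in Kifc5b, so reads of this pair can be shared or lost. The motor gene Kifc2, another kinesin-14, was lower in each CW069 library (3.97, 5.20 and 3.98 CPM) than in any AZ82 library (5.31, 5.50 and 6.21 CPM), with a log2 fold change of -0.37 and an unadjusted edgeR p of 0.0514. Kifc2 and the other 3 tested members of the kinesin-14 list gave a median of -0.04, and the list of 37 other kinesins gave -0.03, with 0 members on either side at an unadjusted p under 0.05.

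Hsd3b6 had the smallest p of all genes. It encodes a 3-beta-hydroxysteroid dehydrogenase, an enzyme of steroid hormone synthesis that adult Leydig cells express. Hsd3b6 stood at 55.3, 61.5 and 49.7 CPM after AZ82, at 25.0, 25.9 and 23.9 CPM after CW069 and at 39.1, 60.7 and 63.3 CPM in Control. Every CW069 library was therefore below every AZ82 and every Control library, while AZ82 and Control overlapped. The log2 fold change was -1.16 ± 0.16 (SE; 95% interval -1.51 to -0.80; unadjusted p = 2.21e-05; edgeR adjusted p = 0.255). Leaving out any 1 library kept it between -1.23 and -1.08. The gene was called lower by DESeq2 (adjusted p = 2.15e-07), by the edgeR fit of the 6 libraries alone (0.00163) and by the edgeR fit without Control 1 (0.00255), and not by limma-voom or the other fits. Against the shared Control libraries the value was 0.03 for AZ82 and -1.13 for CW069.

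The neighbouring paralog Hsd3b1, the major 3-beta-hydroxysteroid dehydrogenase gene of mouse steroid-producing cells, did not share this pattern. Hsd3b1 stood at 130.5, 207.4 and 167.9 CPM after AZ82 and at 182.6, 191.1 and 172.5 CPM after CW069. Those ranges overlap, and the log2 fold change was 0.11 ± 0.14 (95% interval -0.19 to 0.42). Of the 50-base stretches in GENCODE transcripts of Hsd3b6, 2.11% also occur in Hsd3b1 and 13.2% in Hsd3b2, so reads are mostly able to tell Hsd3b6 and Hsd3b1 apart. The 250 bases upstream of each start site are shown because the genes lie side by side and only Hsd3b6 had groups that did not overlap. They come from RefSeq (build GRCm38.p6, minus strand, 5′ to 3′), chr3:98814444-98814693 for Hsd3b6 and chr3:98859795-98860044 for Hsd3b1, and the 50 bases next to the start site are in capitals.
Hsd3b6: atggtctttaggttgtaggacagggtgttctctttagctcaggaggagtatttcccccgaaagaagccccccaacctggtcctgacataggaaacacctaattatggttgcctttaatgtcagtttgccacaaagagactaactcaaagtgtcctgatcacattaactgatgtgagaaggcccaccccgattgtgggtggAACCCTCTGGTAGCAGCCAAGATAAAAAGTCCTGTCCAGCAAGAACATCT
Hsd3b1: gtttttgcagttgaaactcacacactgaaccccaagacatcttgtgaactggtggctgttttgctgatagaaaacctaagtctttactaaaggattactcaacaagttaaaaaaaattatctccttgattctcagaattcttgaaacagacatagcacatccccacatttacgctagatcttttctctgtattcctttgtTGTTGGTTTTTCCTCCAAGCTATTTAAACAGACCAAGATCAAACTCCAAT
The longest run of letters found in both is 7 bases. The motif AAGGTCA, the core of sites bound by the steroidogenic factor NR5A1, was searched on both strands and has 0 matches in each window; it occurs in 4.08% of 32851 RefSeq windows of the same length.

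The rest of the Leydig cell and steroidogenesis list showed no common direction. Of its 29 tested members 16 were above 0 and 13 below, with a median log2 fold change of 0.02 against -0.001 over all genes; the median was -0.16 without AZ82 1 and 0.08 without AZ82 2. Among the steps around Hsd3b6, the cholesterol importer Star gave 0.05, the side-chain cleavage enzyme Cyp11a1 -0.13, the luteinizing hormone receptor Lhcgr -0.13, the testosterone-forming enzyme Hsd17b3 -0.20, the transcription factor Nr5a1 0.02 and the hormone Insl3 0.003, and the groups overlapped in all of these. Cyp17a1, which makes androgen precursors, stood at 798, 955 and 752 CPM after AZ82 and at 700, 668 and 743 CPM after CW069. The groups did not overlap for Cyp17a1, and its log2 fold change was -0.25 (unadjusted p = 0.0309). Ptgds, a prostaglandin synthase, stood at 33.1, 42.6 and 71.7 CPM after AZ82 and at 16.0, 17.3 and 32.4 CPM after CW069 (log2 fold change -1.16, unadjusted p = 0.0112), with the highest CW069 library just under the lowest AZ82 library. Hsd3b6, Cyp17a1 and Ptgds were the 3 lower members at an unadjusted edgeR p under 0.05, and 2 kallikrein-family protease genes were higher. Among all genes tested, 2.39% were lower and 2.58% higher at that threshold. Klk1b21 stood at 26.05, 51.6 and 21.1 CPM after AZ82 and at 66.0, 67.6 and 37.5 CPM after CW069 (0.79 ± 0.31, unadjusted p = 0.0303), with overlap. Klk1b22 stood at 0.65, 0.71 and 0.29 CPM after AZ82 and at 4.86, 4.04 and 0.34 CPM after CW069 (2.44 ± 0.76, unadjusted p = 0.00901), so CW069 1 and 2 were high and CW069 3 was not. Of the 50-base stretches of Klk1b21 29.1%, and of Klk1b22 13.3%, also occur in other genes. The list's per-library level ran from -0.31 to 0.16 after AZ82 and from -0.20 to 0.03 after CW069, which overlap. Cholesterol synthesis and uptake genes had 8 of 29 members above 0, a median of -0.04, and 0 members on either side at an unadjusted p under 0.05.

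Among genes higher after CW069, Pygb, the brain-type glycogen phosphorylase, had the smallest p after the predicted gene Gm11545. Pygb stood at 13.6, 17.7 and 18.1 CPM after AZ82, at 26.9, 26.8 and 25.3 CPM after CW069 and at 21.3, 22.7 and 23.0 CPM in Control. No 2 groups overlapped, and Control lay between the others; the log2 fold change was 0.68 ± 0.11 (unadjusted p = 6.44e-05; edgeR adjusted p = 0.255). DESeq2 called Pygb higher (adjusted p = 0.00123). Mtarc2, a mitochondrial molybdenum enzyme, stood at 34.6, 41.6 and 37.2 CPM after AZ82 and at 53.1, 52.1 and 47.1 CPM after CW069, a log2 fold change of 0.42 ± 0.08 (called by DESeq2, adjusted p = 0.0488). Control libraries of Mtarc2 stood at 53.8, 53.5 and 53.3 CPM, so the AZ82 libraries were the ones set apart. The same placing was seen for Robo1, an axon guidance receptor (0.43 ± 0.10; -0.42 for AZ82 and 0.02 for CW069 against Control). Ptprd, a receptor tyrosine phosphatase, and Cx3cl1, the chemokine fractalkine, gave 0.58 ± 0.12 and 0.63 ± 0.13, again with Control nearer CW069; DESeq2 called Ptprd (adjusted p = 0.0488).

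Jund, Tpm3, Slc13a4 and Fetub had Control nearer AZ82, as Hsd3b6 did. Jund, an AP-1 transcription factor, stood at 45.8, 43.7 and 45.0 CPM after AZ82, at 61.1, 66.7 and 62.8 CPM after CW069 and at 43.5, 51.3 and 37.3 CPM in Control. The CW069 libraries of Jund lay above all others, and the log2 fold change was 0.50 ± 0.10. It was called by DESeq2 (adjusted p = 0.0488) and by the edgeR fit of the 6 libraries alone (adjusted p = 0.0428). Tpm3, a tropomyosin that coats actin filaments, gave 0.66 ± 0.14, with AZ82 libraries at 54.4, 51.0 and 53.3 CPM and CW069 libraries at 75.8, 92.5 and 81.4 CPM, and was called in the same fits (adjusted p = 0.0484 and 0.0428). Slc13a4, a sulfate transporter, gave 0.66 ± 0.14 and Fetub, a secreted protease inhibitor, 1.58 ± 0.30 at a low level (0.80, 0.79 and 0.87 against 2.74, 2.67 and 1.99 CPM). Nptx2, a secreted pentraxin, gave 1.19 ± 0.27 and Macrod2, an ADP-ribose hydrolase, 0.79 ± 0.17. The Control mean lay near the middle for both. Against Control, Nptx2 gave -0.67 for AZ82 and 0.52 for CW069, and Macrod2 -0.40 and 0.39. Control libraries of Nptx2 stood at 8.21, 11.7 and 18.8 CPM. They reached into both the AZ82 range (7.14 to 8.95 CPM) and the CW069 range (13.7 to 21.4 CPM). Those of Macrod2 stood at 15.1, 11.4 and 14.8 CPM, with Control 2 inside the AZ82 range (8.08 to 12.6 CPM). DESeq2 called both (adjusted p = 0.0244 and 0.0488). Amy2a1, a pancreatic amylase gene, held 0, 3 and 1 counts after AZ82 and 46, 34 and 17 after CW069. Of the 50-base stretches of Amy2a1, 94.9% also occur in the copy Amy2a2, so its counts are uncertain; DESeq2 called it higher (adjusted p = 0.0398).

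**Figure D2:**
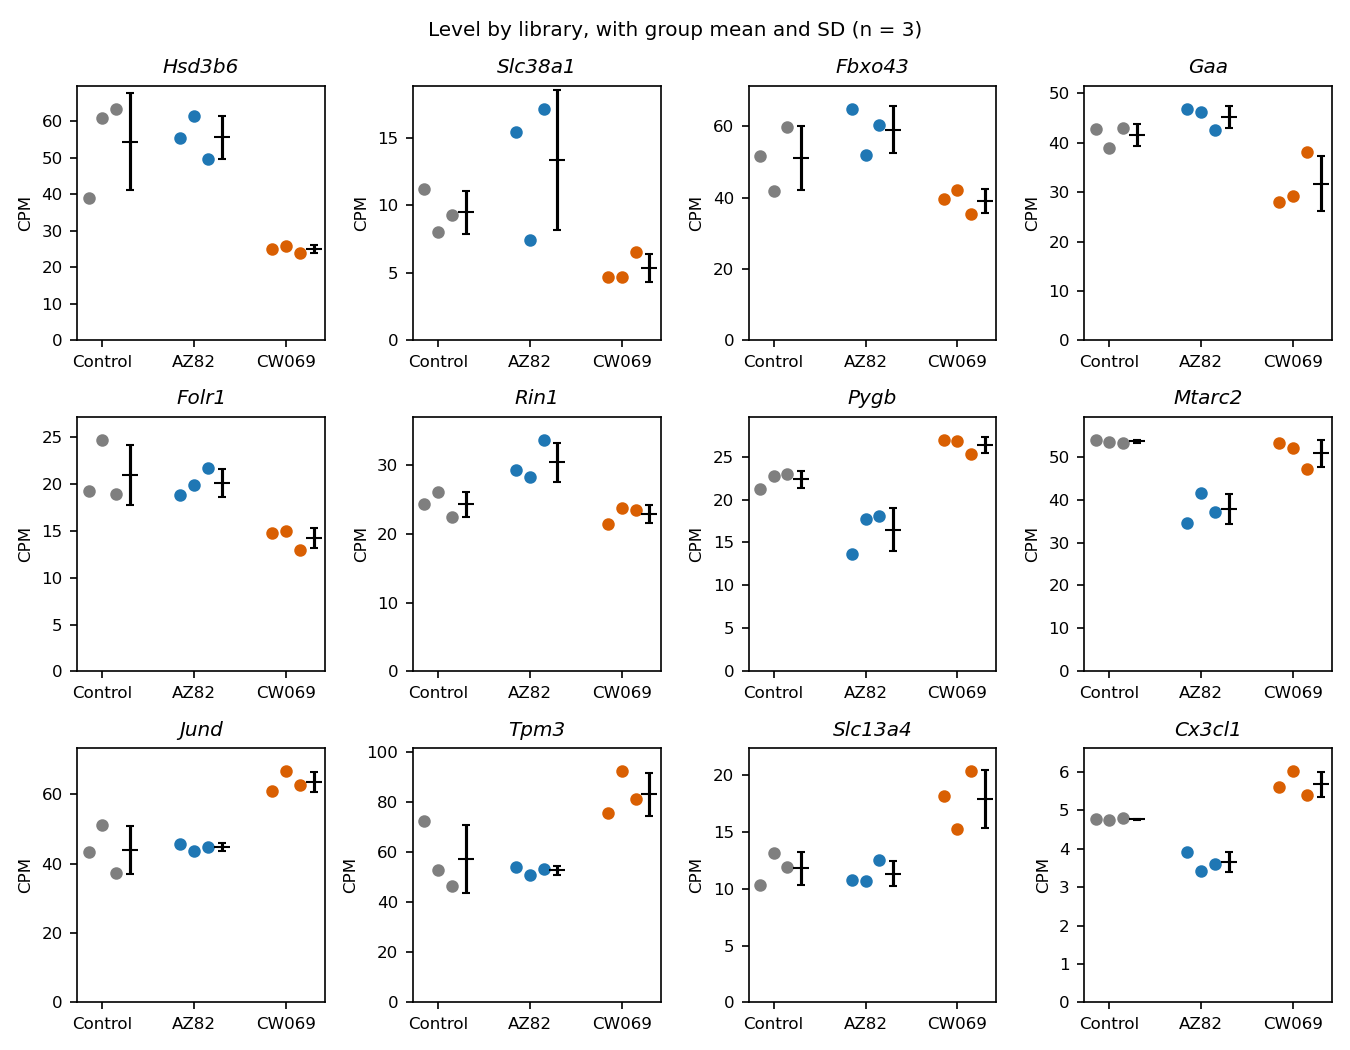
CPM of 12 named genes in each library of Control, AZ82 and CW069 (points), with group mean and SD (black, n = 3). In Hsd3b6 and Jund the CW069 libraries stand apart from both other groups, in Mtarc2 the AZ82 libraries do, and in Cx3cl1 no groups overlap.

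On the lower side after CW069, Slc38a1, an amino acid transporter, stood at 15.4, 7.43 and 17.1 CPM after AZ82 and at 4.73, 4.72 and 6.53 CPM after CW069. Its log2 fold change was -1.31 ± 0.28, and AZ82 2 lay close to the CW069 range. Fbxo43, an inhibitor of the anaphase-promoting complex that is needed in meiosis, stood at 64.8, 51.8 and 60.4 CPM after AZ82 and at 39.6, 42.3 and 35.5 CPM after CW069 (-0.59 ± 0.13). Gaa, the lysosomal alpha-glucosidase that breaks down glycogen, gave -0.51 ± 0.11, while Neu1, the lysosomal sialidase, stood at 11.1, 11.2 and 7.14 CPM after AZ82 and at 4.86, 5.68 and 4.20 CPM after CW069. Sema3b, a secreted semaphorin, gave -0.93 ± 0.20. Folr1, a folate receptor, gave -0.50 ± 0.12 with Control at the level of AZ82. Qtrt1, a subunit of the tRNA queuosine enzyme, gave -1.08 ± 0.25 and the potassium channel Kcnc1 -0.83 ± 0.19. For Celf5, an RNA-binding protein, Rin1, a Ras effector, and Plekhd1, the values were -0.42, -0.41 and -0.45, with Control nearer CW069. None of these passed edgeR's adjusted threshold with all libraries in the fit. DESeq2 called Slc38a1 (adjusted p = 0.0129) and Fbxo43 (0.0488) lower, and edgeR called Slc38a1 without AZ82 2 (0.0387). Each was chosen for its p or its change in this same comparison and for groups that do not overlap.

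The comparisons of AZ82 and of CW069 with Control share the Control libraries, so their values are only set side by side. Hhip, which binds hedgehog ligands, is an example set apart by AZ82, with -1.20 for AZ82 and -0.11 for CW069 against Control. Ifi204, an interferon-induced gene, was below Control after both compounds, at -0.76 and -1.79. Art1, an ADP-ribosyltransferase, was on opposite sides of Control, at -0.62 and 0.52.

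**Figure D3:**
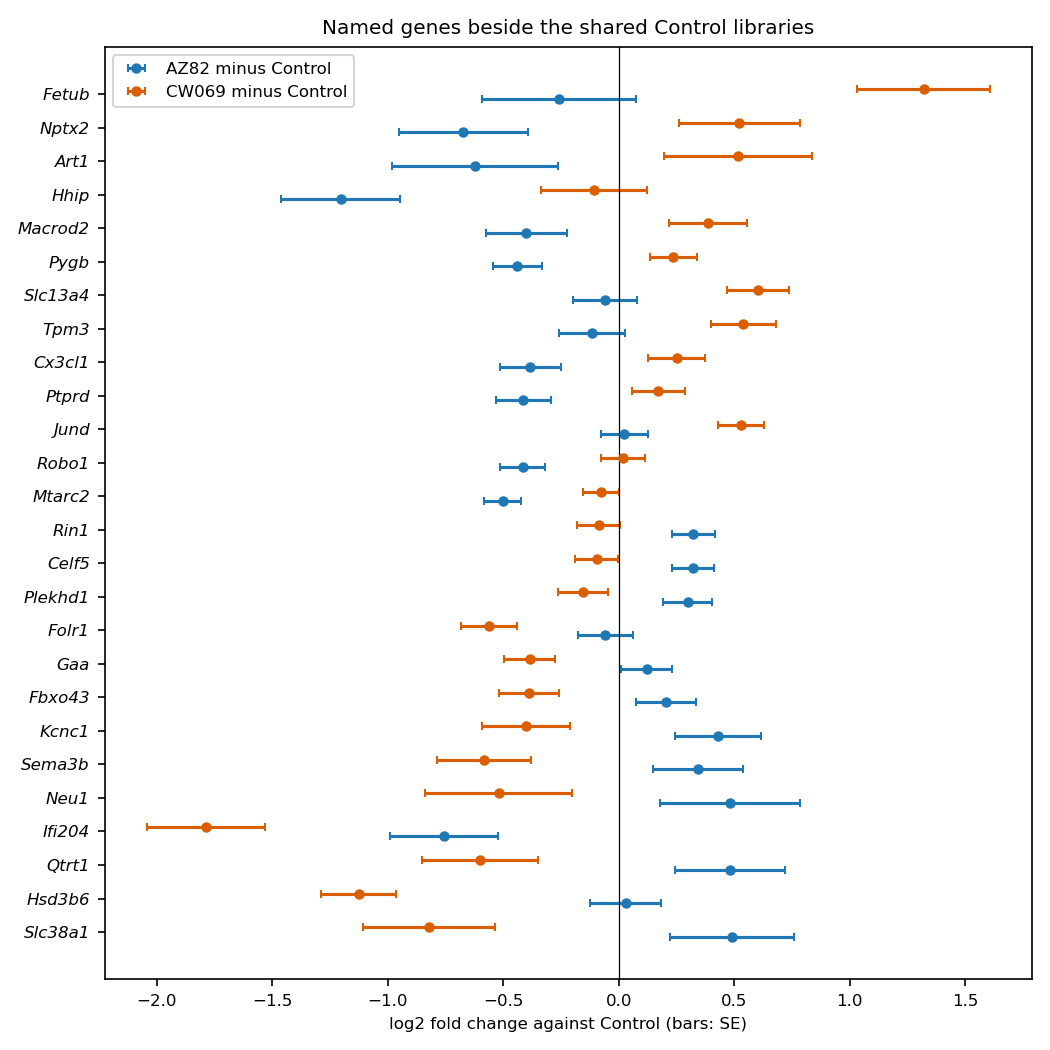
Log2 fold change against Control of 26 named genes after AZ82 (blue) and CW069 (orange), with SE; genes are ordered by the difference between the compounds, and Amy2a1 is left out for its low counts. Hsd3b6, Jund and Slc13a4 have AZ82 near 0, and Mtarc2 and Robo1 have CW069 near 0.

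Late spermatid genes were lower after CW069 than after AZ82 in most members, and their test depended on Control 3. These genes package sperm DNA and build the tail. Of 19 tested sperm chromatin condensation genes 15 were below 0, with a median log2 fold change of -0.09. Prm2, a protamine, stood at 3864, 4360 and 4689 CPM after AZ82 and at 3269, 2720 and 3190 CPM after CW069, with no overlap. Control libraries of Prm2 stood at 4417, 3984 and 1174 CPM, the last being Control 3. The log2 fold change of Prm2 was -0.49 ± 0.36 with all libraries in the fit (unadjusted p = 0.198) and -0.49 ± 0.09 without Control 3 (unadjusted p = 0.000167; adjusted p = 0.145). The transition protein gene Tnp1 gave -0.31 ± 0.28 with all libraries and -0.31 ± 0.09 without Control 3, and Prm1 -0.21 ± 0.31 and -0.21 ± 0.11. Tnp2, the other transition protein gene, overlapped between the groups and gave -0.11 ± 0.23.

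In the fibrous sheath and outer dense fibre list, which covers the sheath around the sperm tail and the enzymes bound to it, 19 of 30 members were below 0 (median -0.08) and 8 had all CW069 libraries below all AZ82 libraries, where 5.80% of all genes did. With all libraries 0 members were lower and 1 higher at an unadjusted edgeR p under 0.05, where 2.39% and 2.58% of all genes were. Without Control 3, 11 of the 30 were lower and 1 higher, where 4.27% of all genes tested in that fit were lower and 3.03% higher. The chromatin list had 4 of 19 lower in that fit; Smcp and Gapdhs are in both lists. Of all these, 0 passed the adjusted threshold. Control 3 is low in these same genes, so leaving it out shortens their SE while the fold changes hardly move. The counts without Control 3 therefore cannot serve as a test of these lists. Odf1, a structural protein of the outer dense fibres, stood at 1137, 1199 and 1339 CPM after AZ82 and at 876, 783 and 1030 CPM after CW069, a log2 fold change of -0.45 ± 0.26, or ± 0.10 without Control 3. Odf3b gave -0.49 and the sperm glycolytic enzyme Pgam2 -0.16, both with no overlap. Cylc1, a protein of the sperm head cytoskeleton, went the other way, at 50.9, 63.1 and 71.2 CPM after AZ82 and 82.5, 75.4 and 83.1 CPM after CW069 (0.38 ± 0.14).

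The chromatin list stood at 0.09, 0.14 and 0.17 after AZ82 and at 0.03, -0.01 and 0.05 after CW069 (log2, centred on the mean of all 9 libraries), which do not overlap, and its median stayed between -0.09 and -0.08 with any 1 library left out. Control 3 stood at -0.64. The fibrous sheath list stood at 0.05, 0.15 and 0.16 after AZ82 and at 0.03, -0.08 and 0.10 after CW069, so AZ82 1 lay within the CW069 range. The median of the fibrous sheath list was -0.14 without AZ82 1 and -0.02 without CW069 2. The share of elongating spermatids in each testis was not measured, and its part in these values was not tested.

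**Figure D4:**
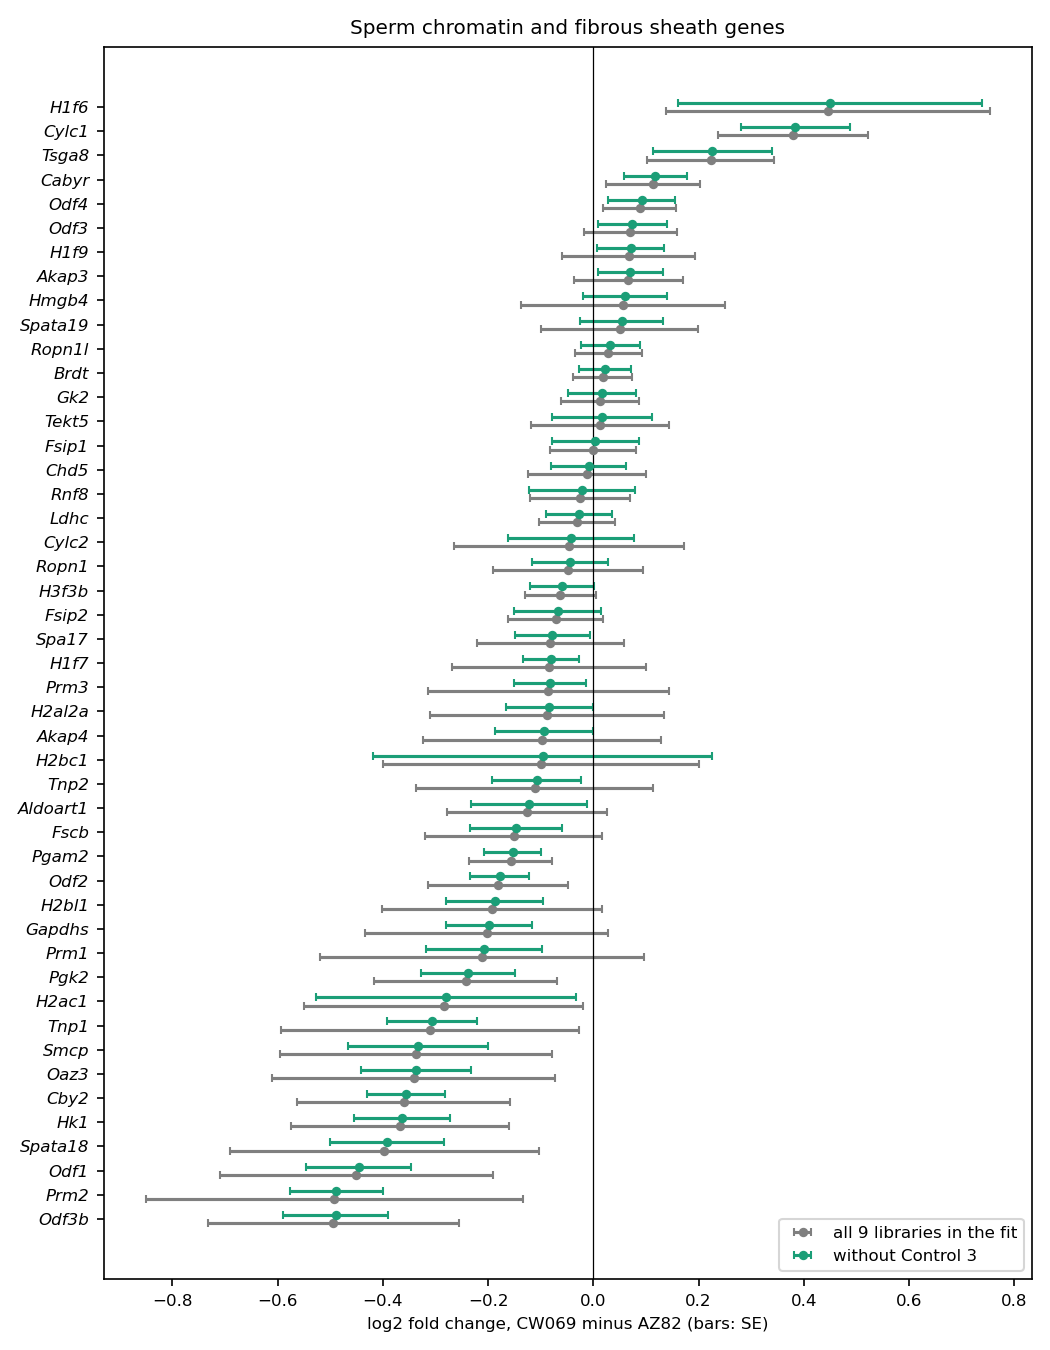
Log2 fold change, CW069 minus AZ82, with SE for 47 sperm chromatin and fibrous sheath genes, fitted with all 9 libraries (grey) and without Control 3 (green). The values hardly move between fits while the error bars shorten, and 32 of the 47 genes are below 0 in both.

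Round spermatid and acrosome genes had a median of -0.03, with 12 of 42 above 0, and 0 of them at an unadjusted p under 0.05 on either side. Axoneme genes gave -0.02 over 53 members, among them the tektin gene Tekt1 at -0.23 and the radial spoke genes Rsph9 at -0.29 and Rsph3a at 0.20. The manchette and intraflagellar transport list gave -0.05, with 11 of 41 above 0 and 5 of the 41 with all CW069 libraries below the AZ82 libraries, where 5.80% of all genes did. Rnf19a, a ubiquitin ligase, stood at 766, 717 and 687 CPM after AZ82 and at 609, 559 and 625 CPM after CW069 (-0.28 ± 0.09, unadjusted p = 0.0114). Cep131, a centriolar satellite protein needed for the flagellum, gave -0.24 ± 0.10. Rnf19a and Cep131 were the members with the smallest p. The leading members of the list, Hook1 (-0.10), Ift88 (0.05), Rimbp3 (-0.002) and Meig1 (-0.001), overlapped between the groups. Genes of meiotic recombination and synapsis (33 tested) had a median of 0.01 and pachytene and diplotene genes (22 tested) of 0.003, with 0 members of either list at an unadjusted p under 0.05.

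Spermatogonial genes lay slightly on the higher side, with 18 of 25 above 0 and a median of 0.10. Gfra1, the receptor subunit for the niche signal GDNF, stood at 5.53, 4.07 and 4.55 CPM after AZ82 and at 5.68, 5.61 and 7.38 CPM after CW069 (0.41 ± 0.18). Zbtb16 gave 0.29 and Stra8, which starts meiosis, 0.18, while Kit, a marker of differentiating spermatogonia, gave -0.23. The list's levels overlapped between the groups, and its median was 0.05 without CW069 2.

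Genes of the spindle and the centrosome, the structures on which KIFC1 acts, had medians near 0 as well. The spindle checkpoint and kinetochore list gave a median of -0.02 over 37 members. At an unadjusted edgeR p under 0.05, 1 was lower (the checkpoint regulator Mad2l1bp, -0.39) and 1 higher (the kinetochore gene Pmf1, 0.32). Among all genes tested, 2.39% were lower and 2.58% higher at that threshold. Centrosome and centriole genes gave -0.04 over 34 members, and dynein and dynactin genes 0.002 over 29. Among 18 tubulin genes, Tubb6 was lower (59.1, 55.7 and 47.3 CPM after AZ82 against 38.8, 37.6 and 13.5 after CW069; -0.86) and the gamma-tubulin gene Tubg2 higher (1.38, 1.71 and 1.59 against 2.95, 3.01 and 1.70; 0.70), each at an unadjusted p under 0.05. CW069 3 was the lowest of all libraries for Tubb6 and lay within the AZ82 range for Tubg2.

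Sertoli cell genes were higher after CW069 in 21 of 29 members, with a median of 0.09. Fshr, the receptor for follicle-stimulating hormone, stood at 5.02, 5.78 and 4.11 CPM after AZ82 and at 7.60, 6.02 and 6.25 CPM after CW069 (0.41 ± 0.16, unadjusted p = 0.0250). Inha, the inhibin alpha subunit, gave 0.38 ± 0.16, with CW069 3 inside the AZ82 range, and Spp1, osteopontin, 0.83 ± 0.29. Clu, an abundant Sertoli cell product, gave 0.10. The markers Amh (0.33), Wt1 (0.12) and Sox9 (0.07) were above 0 and Rhox5 (-0.12) below, each with overlap. The list stood at -0.21, -0.03 and -0.17 after AZ82 and at 0.12, 0.06 and -0.07 after CW069, so CW069 3 lay within the AZ82 range. The median was 0.06 without CW069 2 and 0.15 without CW069 3. In the blood-testis barrier list, 16 of 22 junction genes were above 0. The smallest p belonged to the adhesion genes Ctnna1 (0.22 ± 0.07) and Vcl (0.19 ± 0.07), whose groups did not overlap. The junction genes Cldn11 (0.18) and Tjp1 (0.04) were above 0 and Gja1 (-0.09) below, each with overlap. The list's median of 0.04 was 0.09 without CW069 1.

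Matrix genes had values on both sides of 0, with 22 of 38 above 0 and a median of 0.03, which was -0.02 without AZ82 1 and 0.09 without AZ82 3. Fn1, fibronectin, stood at 43.4, 46.7 and 46.5 CPM after AZ82 and at 55.1, 53.8 and 56.1 CPM after CW069. The groups were well separated, and the log2 fold change was 0.27 ± 0.06 (unadjusted p = 0.00143; adjusted p = 0.754). Lama1, a laminin chain of the tubule basement membrane, gave 0.20 ± 0.06 and Eln, elastin, 0.46 ± 0.16. These are the members with the smallest p; the collagen genes Col1a1 and Col3a1 gave -0.06 and 0.02. In 5 of the 38 all CW069 libraries lay above all AZ82 libraries and in 0 below, where 5.52% and 5.80% of all genes did. The myoid marker Acta2 gave 0.21 ± 0.07 and its list a median of 0.10 over 16 members, which was 0.04 without CW069 2.

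Immune and blood cell lists had wide spreads between the libraries of a group. Interferon-stimulated genes were on the lower side in all but 3 of 35 members, with a median of -0.24, which was -0.40 without AZ82 1 and -0.16 without AZ82 2. Ifi204 stood at 1.60, 2.36 and 1.73 CPM after AZ82 and at 0.89, 1.23 and 0.68 CPM after CW069 (-1.03 ± 0.27), and Ifit1 gave -0.81 ± 0.33 with overlap. The list's levels were -0.24, 0.35 and 0.19 after AZ82 and -0.17, 0.04 and -0.36 after CW069, so AZ82 1 lay inside the CW069 range. Macrophage genes gave a median of -0.03 over 29 members. Red blood cell genes gave 0.47 over 4 tested members, 3 above 0 and 1 below. The list's levels did not overlap, but its Control levels ran from -0.61 to 0.67, beyond both groups on either side. The globin gene Hba-a1, the member with the smallest p, stood at 14.1, 17.4 and 11.9 CPM after AZ82. After CW069 it stood at 37.9, 21.2 and 20.2 CPM, and 72.3% of its 50-base stretches also occur in Hba-a2. Hbb-bs gave 0.59 without overlap and Hbb-bt 0.36 with overlap. Adipocyte genes gave -0.37, with AZ82 2 alone at a level of 1.06; without AZ82 2 the median was 0.05. The adipocyte gene Fabp4 stood at 1.09, 12.6 and 1.88 CPM after AZ82 and at 2.67, 1.16 and 1.31 CPM after CW069.

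**Figure D5:**
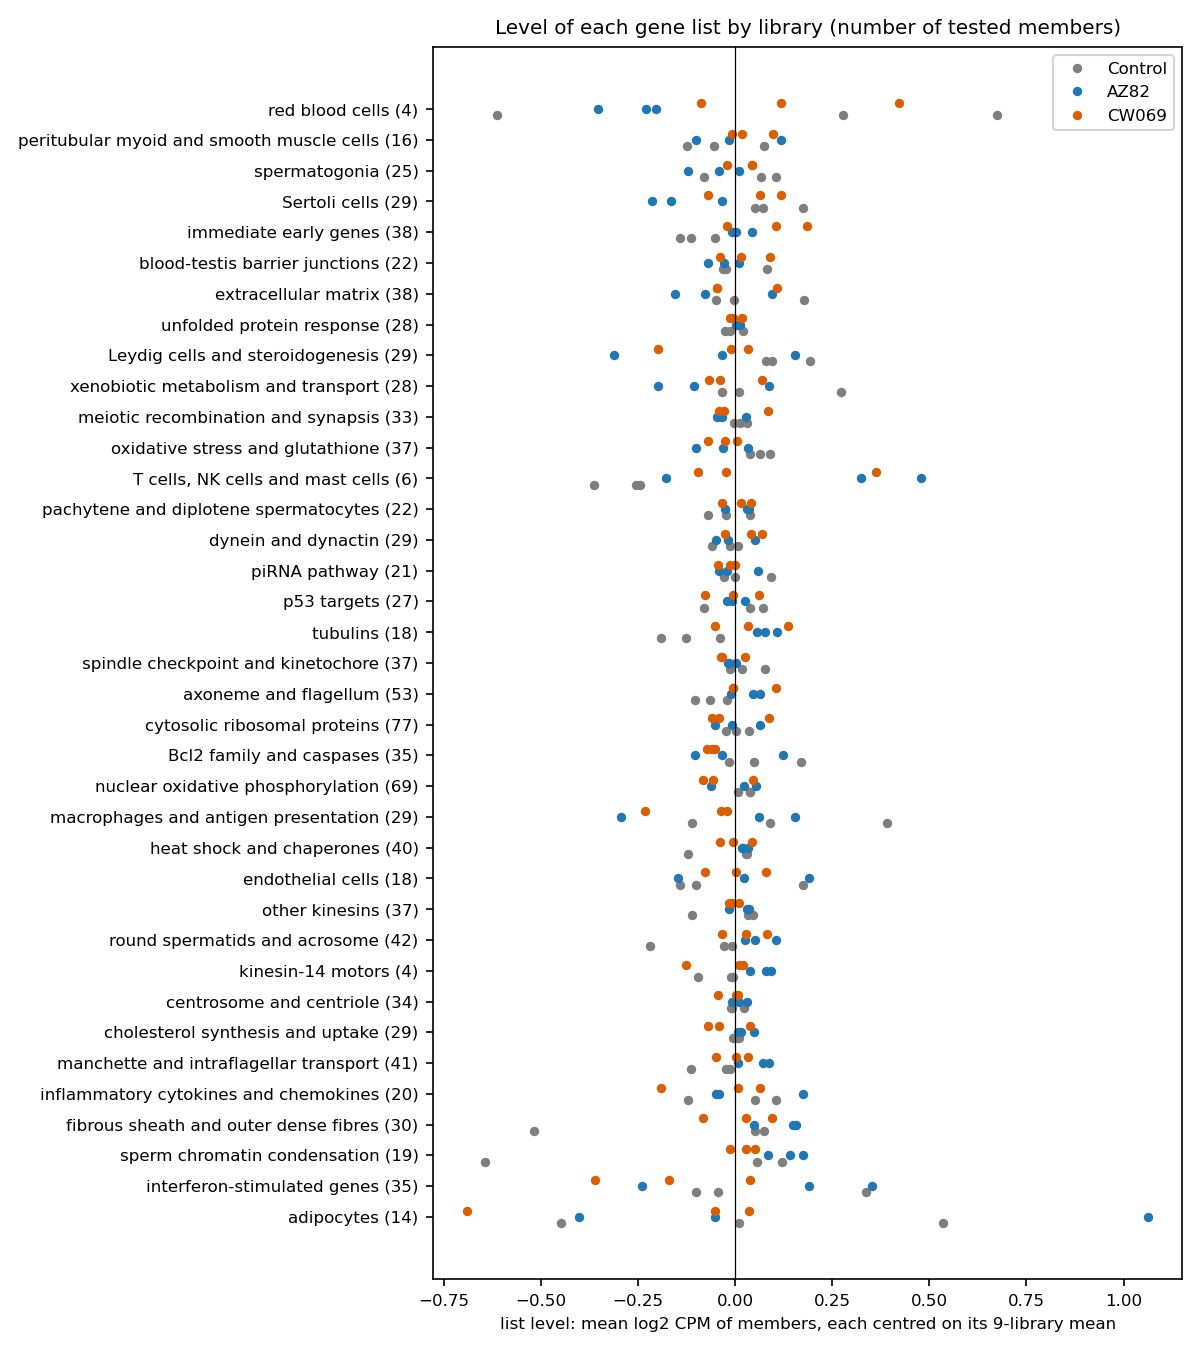
Level of each of 37 gene lists in the 9 libraries (mean log2 CPM of the members, each centred on its mean over all libraries), ordered by the median log2 fold change, CW069 minus AZ82. The AZ82 and CW069 points overlap in all but 3 lists (red blood cells, sperm chromatin condensation and kinesin-14 motors), and the widest spreads come from single libraries.

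Stress and signalling lists had medians close to 0. Immediate early genes gave 0.09 over 38 members, with 5 higher and 2 lower at an unadjusted edgeR p under 0.05, where 2.58% and 2.39% of all genes were. The median was 0.16 without CW069 1 and 0.02 without CW069 3. The values lay on both sides of 0, with Jund and Mafk, a small Maf factor (0.37 ± 0.13), on the higher side. Fos, the AP-1 partner, stood at 2.04, 1.71 and 1.30 CPM after AZ82 and at 1.03, 0.82 and 1.19 CPM after CW069 (-0.72 ± 0.27), and the phosphatase Dusp1 gave -0.44 ± 0.14. The p53 target list gave -0.01 over 27 members and the Bcl2 and caspase list -0.02 over 35, with 0 members of either at an unadjusted p under 0.05. Heat shock genes gave -0.03 over 40 members, where Dnajb13, a sperm tail chaperone, gave -0.20 ± 0.08. The unfolded protein response list gave 0.03, where Ddit3, a stress-induced transcription factor, gave -0.27. Nuclear genes of oxidative phosphorylation gave -0.02 over 69 members, 26 of them above 0. At an unadjusted edgeR p under 0.05, 1 member was higher and 3 were lower, where 2.58% and 2.39% of all genes were. The lower ones were the complex I genes Ndufa1 (-0.42 ± 0.12), Ndufa6 (-0.29 ± 0.08) and Ndufs8 (-0.19 ± 0.07).

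Genes that handle foreign compounds had a median near 0. The xenobiotic metabolism and transport list gave 0.02 over 28 tested members of 40. At an unadjusted edgeR p under 0.05, Cyp2s1 was higher (0.73 ± 0.29). Cyp2d22 and the epoxide hydrolase Ephx1 were lower (-0.28 ± 0.12 and -0.34 ± 0.14). Among all genes tested, 2.58% were higher and 2.39% lower at that threshold. Gstm6, a glutathione transferase, stood at 39.2, 38.6 and 38.7 CPM after AZ82 and at 46.4, 47.3 and 44.8 CPM after CW069 (0.25 ± 0.06). The AZ82 libraries of Gstm6 were again the lower ones beside Control, which stood at 50.2, 46.0 and 45.1 CPM. Over all 37 lists the median was above 0 in 15 and below 0 in 22, and it passed 0.1 in size in 5. With 1 library left out the median crossed 0 in 23 lists.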

How the data were processed

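Testis RNA was sequenced from 9 libraries, 3 each after PBS, AZ82 and CW069. The authors deposited raw read counts per gene, with no normalization; the submitters' processing notes name Trimmomatic, HISAT2, HTSeq and the GRCm39 build, without settings. Libraries were made with a strand-marking mRNA kit, per the labels' protocols; whether HTSeq used strand is not given in the sources used here, so overlapping antisense genes are uncertain. Each library's own counts equalled its column of the joint table.

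Low counts were removed by filterByExpr, TMM set the scaling, and R 4.3.3 with edgeR 4.0.16 fitted all 9 libraries with 1 coefficient per group and the two-sided quasi-likelihood F test. DESeq2 1.42.0, limma-voom 3.58.1, other scalings and filters, the 6 libraries alone, each library left out and the replicate number as a block were alternatives. The script was tested on simulated data. Lists are described by counts and medians, without a test. Named genes are Kifc1 and Kifc5b, the 12 per direction with the smallest p (mean of at least 1 CPM, no overlap, not a predicted gene), the 5 per direction with the largest change at an unadjusted p under 0.01, leading list members, and genes called in another fit; Kifc2, Prm1, Tnp1, Tnp2, Odf1, Odf3b, Pgam2, Rpl26, Rpl30, Gdf9, Ibsp and Klk1b21 were added after their values were seen. Of the genes that this rule named, 1 is not reported here. The members and lists were chosen with earlier results of these data known.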

Additional observations from a re-analysis of the deposited data

How the results depend on the processing

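With the 6 libraries alone 5 genes were called higher and 3 lower, and DESeq2 called 9 and 4; limma-voom, the other scalings and filters, the robust fit and an adjusted p under 0.10 called 0. Leaving out 1 library gave 0 to 3 calls higher and 0 to 1 lower: without Control 1, Hsd3b6 (adjusted p = 0.00255); without AZ82 2, Cst9, Shroom3, 2010109A12Rik and, lower, Slc38a1; without CW069 3, Dchs1, Galntl6, Klk1b22 and, lower, Olfr112. At an unadjusted p under 0.05, DESeq2 had 238 genes higher and the 6-library fit 709 lower; leaving out 1 library gave 226 (without CW069 2) to 580 (without CW069 3) higher and 244 (without CW069 1) to 683 (without Control 3) lower. Genes with no overlap numbered 885 to 2125 above and 884 to 2069 below when 1 library was left out, an alternative chosen after seeing the data; fewer libraries make such a gap easier to meet. 

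The replicate numbers do not pair the samples: deviations of same-numbered AZ82 and CW069 libraries correlated at -0.01, -0.08 and 0.05 over genes. A replicate block gave 0 calls, with 328 genes higher and 339 lower at an unadjusted p under 0.05.

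Among the named genes followed through the alternative fits, the values of 7 changed sign when 1 library was left out. They ran from -0.0348 (without CW069 3) to 0.0894 for Kifc1, from -0.0437 (without AZ82 1) to 0.287 for Hsd3b1, from -0.0164 (without AZ82 1) to 0.139 for Star and from -0.0203 (without AZ82 2) to 0.0451 for Nr5a1, which was also below 0 without CW069 2. For Insl3 they ran from -0.161 (without AZ82 1) to 0.20 (it was also below 0 without AZ82 3, CW069 1 or CW069 2), for Fabp4 from -2.09 to 0.20 (without AZ82 2) and for Rpl26 from -2.39 to 0.0245 (without AZ82 3). Of 37 list medians, 23 crossed 0 when 1 library was left out and 12 kept their sign but moved by over 1.5 times. Those of red blood cells (0.353 to 0.608) and sperm chromatin condensation (-0.09 to -0.0819) did neither. Among those that crossed 0, the unfolded protein response ran from -0.00225 (without CW069 2) to 0.0405, macrophages from -0.14 to 0.06, extracellular matrix from -0.02 to 0.09, xenobiotic metabolism from -0.03 to 0.13 and ribosomal proteins from -0.07 to 0.02. The causes were not tested. Low counts widen the interval of genes under 10 CPM.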

Other observations

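Some genes split the libraries of a group into a high and a low set, so that 1 library decided their value. Cst9, a cystatin expressed in the testis, stood at 12.1, 92.2 and 17.03 CPM after AZ82, against 104.8, 86.7 and 83.0 CPM after CW069 and 63.2, 102.6 and 56.3 CPM in Control. Shroom3, an actin-binding protein of epithelial shape, stood at 51.2, 105.8 and 46.0 CPM after AZ82 and between 113.4 and 122.1 CPM after CW069. The predicted gene 2010109A12Rik stood at 0.80, 17.1 and 1.01 CPM after AZ82 and between 17.2 and 22.6 CPM after CW069. In all of these AZ82 1 and AZ82 3 were low and AZ82 2 was at the level of the CW069 libraries. Each was called higher only in the fit without AZ82 2, with a log2 fold change of 2.65 for Cst9, 1.26 for Shroom3 and 4.39 for 2010109A12Rik.

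CW069 3 differed in the same manner from CW069 1 and CW069 2, which were close to each other. Dchs1, a protocadherin of planar cell polarity, stood at 21.4, 24.6 and 10.51 CPM after CW069 and between 8.93 and 9.68 CPM after AZ82. Galntl6, a glycosyltransferase, stood at 44.2, 42.6 and 16.8 CPM after CW069 and between 19.9 and 20.2 CPM after AZ82. Klk1b22, a kallikrein-family protease of the Leydig list, stood at 4.86, 4.04 and 0.34 CPM after CW069 and at or under 0.71 CPM after AZ82. The olfactory receptor gene Olfr112 was low in CW069 1 and 2 (6.30 and 6.37 CPM) and stood at 24.5 CPM in CW069 3. Without CW069 3 their log2 fold changes were 1.31, 1.11, 2.99 and -1.65.

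Ribosomal protein genes gave a median log2 fold change of -0.02 over 77 members, yet a few varied widely between libraries. Rpl26 stood at 122.3 CPM in AZ82 3 and between 11.8 and 14.5 CPM in the other AZ82 and the CW069 libraries. Rpl30 stood at 21.1, 24.4 and 65.1 CPM after AZ82 and at 77.9, 65.6 and 108.5 CPM after CW069, and at 23.9, 119.5 and 66.6 CPM in Control. In the GENCODE transcripts 22.7% of the 50-base stretches of Rpl26 and 10.7% of those of Rpl30 also occur in other genes. The oocyte growth factor gene Gdf9 stood at 6.62 CPM in AZ82 1 and at or under 0.68 CPM in the other AZ82 and the CW069 libraries. Ibsp, a bone matrix protein gene, stood at 9.97 and 10.9 CPM in AZ82 1 and 2, at 0.72 CPM in AZ82 3 and between 0.82 and 1.93 CPM after CW069. The Control libraries were split as well, at 1.17, 4.88 and 0.33 CPM for Gdf9 and at 56.05, 1.35 and 27.1 CPM for Ibsp. The outbred stock, the animal and the handling of each sample were not told apart in the labels, and their part in these values was not tested.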
